A study of Mus musculus with 9 samples.

Results

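The miR-132 and miR-212 cluster is a pair of neighbouring miRNA genes, and it was followed here through its 4 mature products, mmu-miR-132-3p, mmu-miR-132-5p, mmu-miR-212-3p and mmu-miR-212-5p. These members were taken by name from a table of read counts with 1448 mature miRNAs, and 4 of 4 passed the filter of at least 10 reads in at least 3 libraries, as did 628 of the 1448. The counts came from small RNA libraries of the hippocampus of adult male C57BL/6J mice, with 3 libraries in each of 3 groups. The saline group received 0.9% saline. The LPS group received lipopolysaccharide, a bacterial endotoxin used to provoke neuroinflammation, as a single intraperitoneal dose of 1 mg/kg, and its labels also name 0.12% saline. The LPS + GAS group received the same LPS and was given gastrodin (GAS), a phenolic glucoside, at 100 mg/kg 1 h after LPS. The methods of the study also describe GAS at the time of the LPS injection, the order of LPS and GAS is not given the same way throughout the sources, and the methods place tissue collection after behavioural tests at 6 and 24 h. The labels do not say whether each library is from a separate animal, so the p-values measure the spread between these libraries. Whole hippocampal tissue was sequenced, and less of a miRNA per cell cannot be told apart from fewer cells that hold it.

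MiR-132 and miR-212 are made from a shared primary transcript whose promoter is switched on by the transcription factor CREB. In neurons, synaptic activity and the growth factor BDNF raise this transcript, and miR-132 is known for promoting the growth and branching of dendrites. Among its known targets is the mRNA for acetylcholinesterase, and endotoxin is known to raise miR-132 in cultured leukocytes. Each hairpin is cut into a 5p arm and a 3p arm, either of which can be loaded into an Argonaute protein, and bases 2 to 8 of the loaded strand, the seed, guide it to its targets.

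The mature sequences are shown because the seed decides which members can share targets. They were taken from RefSeq annotation of GRCm38.p6, the build named in the submitters' processing notes, are written 5′ to 3′, and have the seed in capitals.

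mmu-miR-132-3p: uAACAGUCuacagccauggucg

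mmu-miR-212-3p: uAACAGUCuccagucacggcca

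mmu-miR-132-5p: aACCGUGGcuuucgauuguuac

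mmu-miR-212-5p: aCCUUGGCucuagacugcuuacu

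The 3p arms of the cluster had the same seed, AACAGUC, and they were the only 2 of the 1448 listed miRNAs with it. Aligned from the first base, they were identical at 17 of 22 positions. With the base of mmu-miR-132-3p first and positions counted from the 5′ end, the differences were A10C, C14U, U17C, U20C and G22A, so the strands did not differ before base 10. The 5p arms each had a seed found in no other listed miRNA. They were identical at 9 of 22 positions when aligned at the first base, and at 14 of 21 when shifted by 1 base. None of the 4 mature sequences was shared with another row of the table, so a member and any other listed miRNA differ in their full sequences. How shorter or altered reads were assigned is not stated in the sources used here.

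The hairpins are shown, with both mature arms in capitals, because the arms are compared with each other in the results.

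Mir132 (chr11:75173682-75173747, + strand): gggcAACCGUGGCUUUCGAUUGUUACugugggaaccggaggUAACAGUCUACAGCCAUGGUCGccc

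Mir212 (chr11:75173388-75173478, + strand): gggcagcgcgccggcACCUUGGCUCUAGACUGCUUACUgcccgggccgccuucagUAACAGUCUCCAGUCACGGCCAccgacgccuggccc

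The hairpins were 66 and 91 bases long and lay 203 bases apart on chromosome 11, with Mir212 first. Both were inside intron 1 (75172598 to 75173977, 1380 bases) of 1700016P03Rik, a noncoding gene with 3 exons on the same strand (75172560 to 75177633, GENCODE release M21). The mature arms lay at 75173403 to 75173425 (mmu-miR-212-5p), 75173443 to 75173464 (mmu-miR-212-3p), 75173686 to 75173707 (mmu-miR-132-5p) and 75173723 to 75173744 (mmu-miR-132-3p).

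Total reads on miRNAs were 10119758 to 11457656 per library, and 1008 to 1046 miRNAs had at least 1 read. The 4 members together had 7520 to 16165 reads per library, which was 0.0715% to 0.160% of the library. The lowest count of a member was 575 reads, for mmu-miR-132-3p in LPS + GAS replicate 3. In the rest of the text a level is in CPM (reads scaled to a common library size), computed from the read counts with TMM factors.

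The 3p arm of miR-132 was the least abundant member and differed little between groups. Reads of mmu-miR-132-3p numbered 717, 992 and 717 in saline, 740, 968 and 1055 in LPS, and 811, 922 and 575 in LPS + GAS. As CPM these were 68.5, 87.7 and 72.3, then 73.6, 80.4 and 106, then 75.7, 93.3 and 55.4. The highest level was in LPS replicate 3 and the lowest in LPS + GAS replicate 3, and the saline libraries lay inside that range. The group levels were 76.2 ± 10.2 CPM in saline, 86.7 ± 17.1 in LPS and 74.8 ± 19.0 in LPS + GAS (SD, n = 3 each), and all pairs of groups overlapped.

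The 5p arm of miR-132 was read more often than the 3p arm in 9 of 9 libraries. Reads of mmu-miR-132-5p numbered 1292, 1929 and 1264 in saline, 1511, 1693 and 2109 in LPS, and 1498, 2503 and 1254 in LPS + GAS. The corresponding levels were 123, 171 and 127 CPM, then 150.4, 141 and 212.1, then 139.8, 253 and 121. LPS + GAS held both the highest and the lowest library, so its range enclosed those of both other groups. Group levels were 140.5 ± 26.2, 168 ± 38.8 and 171 ± 71.6 CPM (SD, n = 3 each).

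The 3p arm of miR-212, which has the same seed as mmu-miR-132-3p, was among the steadier miRNAs of the table. Mmu-miR-212-3p had 4402, 5529 and 4391 reads in saline, 4292, 5607 and 5459 in LPS, and 4534, 5296 and 3830 in LPS + GAS. In CPM it was 420.5, 489 and 443, then 427, 466 and 549, then 423, 536 and 369. LPS replicate 3 was again the highest library and LPS + GAS replicate 3 the lowest. The group levels of 450.7 ± 34.96, 480.7 ± 62.3 and 443 ± 85.1 CPM (SD, n = 3 each) overlapped in every pair of groups.

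The 5p arm of miR-212 varied most. Mmu-miR-212-5p had 4639, 5735 and 4611 reads in saline, 2527, 7897 and 6364 in LPS, and 4066, 4670 and 1861 in LPS + GAS. Its levels were 443, 507 and 465 CPM in saline, 251.5, 656 and 640.1 in LPS, and 379, 472 and 179 in LPS + GAS. The saline libraries were close together, while LPS replicate 1 and LPS + GAS replicate 3 were low and LPS replicates 2 and 3 were high. The coefficient of variation was 6.91% in saline, 44.4% in LPS and 43.6% in LPS + GAS, around group levels of 472 ± 32.6, 516 ± 229 and 344 ± 149.8 CPM (SD, n = 3 each).

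**Figure D1:**
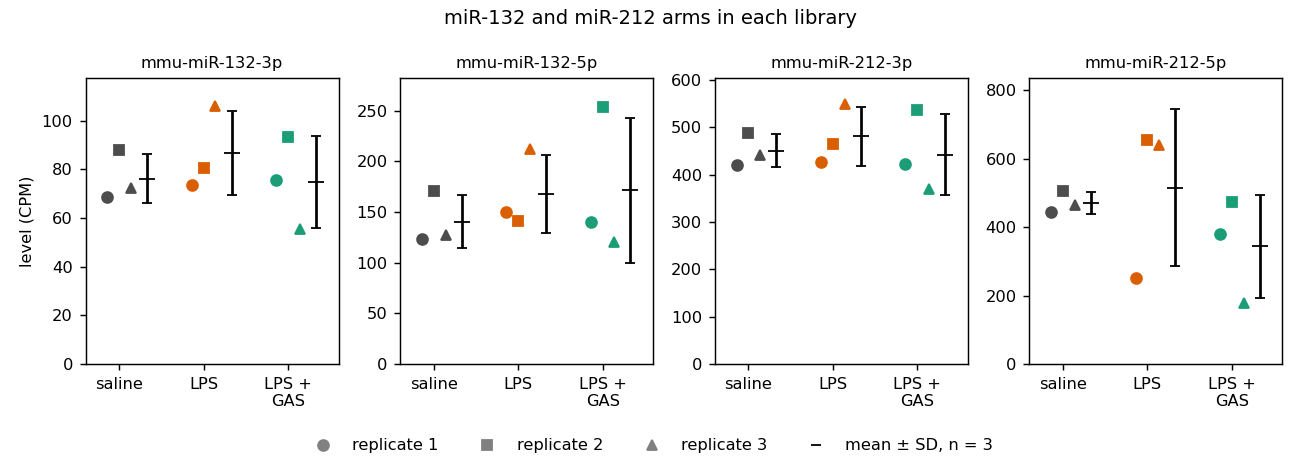
Level of each of the 4 miRNAs in CPM (linear axes from 0, a different scale in each panel) by group, with 1 point per library, its shape giving the replicate number, and bars for the mean ± SD of 3 libraries. The groups overlap in every panel, and mmu-miR-212-5p has tight saline libraries (443 to 507 CPM) beside scattered LPS (251.5 to 656 CPM) and LPS + GAS (179 to 472 CPM) libraries.

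Over the 9 libraries the order of the mean levels was mmu-miR-212-3p (458 CPM, rank 108 of the 628 miRNAs tested), mmu-miR-212-5p (444 CPM, rank 112), mmu-miR-132-5p (159.8 CPM, rank 165) and mmu-miR-132-3p (79.2 CPM, rank 208). The miR-212 arms did not keep an order between them, since the 5p arm was higher in 5 libraries and the 3p arm in 4. Both were above the miR-132 arms in 9 of 9 libraries. These are levels of mature strands of 22 or 23 bases and were not scaled by length. Adapter ligation in small RNA libraries does not catch every sequence equally well, so an order between different miRNAs is one of reads and not of molecules.

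The spread inside groups differed between members. The SD of log2 CPM within groups was 0.20 for mmu-miR-212-3p, 0.29 for mmu-miR-132-3p, 0.40 for mmu-miR-132-5p and 0.62 for mmu-miR-212-5p, beside a median of 0.258 over the 238 miRNAs with a mean of at least 50 CPM. By this measure mmu-miR-212-5p was the 25th most variable of the 238, and mmu-miR-212-3p ranked 180.

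The strands with the shared seed rose and fell together from library to library. Over the 9 libraries, log2(CPM + 1) of mmu-miR-132-3p and mmu-miR-212-3p had a Pearson r of 0.974 (exact permutation p = 3.31e-05, adjusted over the 12 correlations computed to 0.000397) and a Spearman coefficient of 0.933 (exact permutation adjusted p = 0.00281). With LPS replicate 3 and LPS + GAS replicate 3 left out, r was 0.945, and from deviations around the group means it was 0.974. Each of these strands was, among the 237 other miRNAs of at least 50 CPM, the one most correlated with the other. All members of a library share its depth and TMM factor, and the part of these in the correlations was not tested.

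The other pairs were looser, and the pair of 5p arms was the loosest. Mmu-miR-132-5p had r = 0.848 with its own 3p arm (Spearman 0.933, exact permutation adjusted p = 0.00435 and 0.00281). It was 0.895 without LPS replicate 3 and LPS + GAS replicate 3. In each pair the 2 libraries left out were those farthest from the median of only 1 of its members, here mmu-miR-132-3p. LPS + GAS replicate 2, the highest library of mmu-miR-132-5p, thus stayed in. With mmu-miR-212-3p, mmu-miR-132-5p had r = 0.885 (Spearman 0.900, exact permutation adjusted p = 0.00281 and 0.00435), and 0.743 without LPS replicate 3 and LPS + GAS replicate 2. The arms of miR-212 had r = 0.778 (Spearman 0.817, exact permutation adjusted p = 0.0192 and 0.0185), and 0.845 without LPS replicate 3 and LPS + GAS replicate 2. LPS replicate 1 and LPS + GAS replicate 3, the libraries low in mmu-miR-212-5p, stayed in, and r without them was not computed. Mmu-miR-132-3p and mmu-miR-212-5p had r = 0.774 (Spearman 0.750, exact permutation adjusted p = 0.0192 and 0.0306), which fell to 0.374 without LPS replicate 3 and LPS + GAS replicate 3 and so rested on those libraries. The 5p arms had r = 0.428 (Spearman 0.583, exact permutation adjusted p = 0.243 and 0.118), and 0.316 without LPS replicate 3 and LPS + GAS replicate 2, so a relation between them was not shown.

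**Figure D2:**
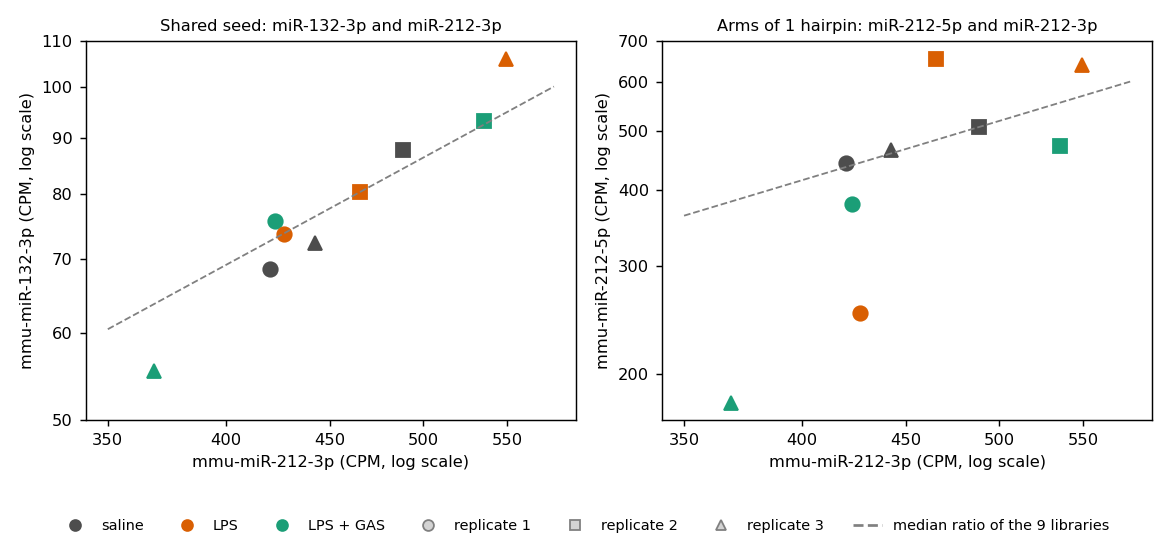
Level of mmu-miR-132-3p (left) and of mmu-miR-212-5p (right) against mmu-miR-212-3p, in CPM on log axes, with 1 point per library coloured by group and a dashed line at the median ratio of the 9 libraries. The 3p strands with the shared seed follow the line (r = 0.974), while in the right panel LPS replicate 1 (251.5 CPM) and LPS + GAS replicate 3 (179 CPM) lie far under it.

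Ratios of reads inside a library do not depend on library size or TMM, and were used to ask whether LPS or GAS shifted the balance of the cluster. The balance between the strands with the shared seed was narrow. Mmu-miR-212-3p had 5.17 to 6.66 times the reads of mmu-miR-132-3p, and made up 83.8% to 86.9% of the CPM carrying this seed. The log2 ratio of mmu-miR-132-3p to mmu-miR-212-3p averaged −2.57 ± 0.080 in saline, −2.48 ± 0.095 in LPS and −2.58 ± 0.14 in LPS + GAS (SD, n = 3 each), and the groups overlapped in every comparison. The summed level of the seed was 527 ± 45.1 CPM in saline, 567 ± 79.4 in LPS and 517 ± 104 in LPS + GAS.

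The miR-132 arms also kept a similar ratio. The 5p arm had 1.75 to 2.71 times the reads of the 3p arm, with the highest value in LPS + GAS replicate 2. The log2 ratio of the 3p to the 5p arm averaged −0.88 ± 0.074 in saline, −0.95 ± 0.12 in LPS and −1.15 ± 0.28 in LPS + GAS (SD, n = 3 each). Differences between groups were −0.070 for LPS vs saline, −0.21 for LPS + GAS vs LPS and −0.27 for LPS + GAS vs saline, with two-sided exact permutation p = 0.5, 0.4 and 0.2. Without LPS + GAS replicate 2 the last pair were −0.060 and −0.13. Without LPS + GAS replicate 1 they were −0.34 and −0.41 (exact permutation p = 0.1 for each, not adjusted).

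The miR-212 arms were near an even balance in every saline library and away from it in the LPS-injected ones, in either direction. Reads of the 5p arm per read of the 3p arm were 1.05, 1.04 and 1.05 in saline, 0.589, 1.41 and 1.17 in LPS, and 0.897, 0.882 and 0.486 in LPS + GAS. LPS libraries lay on both sides of the saline ones, and LPS + GAS libraries were all lower. The log2 ratio of the 3p to the 5p arm averaged −0.066 ± 0.012 in saline, 0.016 ± 0.66 in LPS and 0.46 ± 0.50 in LPS + GAS (SD, n = 3 each). Reads alone give this ratio a counting SD of 0.0252 to 0.0408 in a library.

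In LPS + GAS vs saline the log2 ratio of the miR-212 arms differed by 0.53 without overlap. The two-sided exact permutation p was 0.1, the smallest that 3 against 3 libraries allow, and 0.686 after adjustment over the 12 ratio tests. The share of other arm ratios without overlap in this comparison was not computed. For levels of single miRNAs that share was 7.32%. Without LPS + GAS replicate 3 the difference was 0.24, and without LPS + GAS replicate 1 or 2 it was 0.68 or 0.67. For LPS vs saline the difference was 0.083 (exact permutation p = 1), and without LPS replicate 1 it was −0.29. For LPS + GAS vs LPS it was 0.44 (exact permutation p = 0.4), and 0.15 without LPS + GAS replicate 3. Without LPS replicate 1 it was 0.82 (exact permutation p = 0.1, not adjusted). The 12 ratio tests had adjusted p-values of 0.686 to 1. Those of 3 against 3 libraries could not fall under 0.1, so they cannot decide whether the balance shifted. All LPS-injected libraries against saline allowed an unadjusted p down to 0.0119. The differences there were −0.17 (miR-132 arms), 0.30 (miR-212 arms) and 0.040 (mmu-miR-132-3p to mmu-miR-212-3p). Their exact permutation p-values were 0.25, 0.393 and 0.655 (adjusted 0.686, 0.686 and 0.786), so no shift of balance was shown in that comparison.

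Other precursors give a scale for these ratios. Of 38 precursors with both arms at 50 CPM or more, miR-212 had the smallest SD of the log2 arm ratio in saline (0.012, beside a median of 0.299), and that SD was under its counting SD in saline (0.0272 to 0.0304). Pooled over the groups, its SD of 0.48 was the 6th highest of the 38, beside a median of 0.327. A ratio narrow in saline and wider in both injected groups was not particular to miR-212. The SDs of miR-30e were 0.11 in saline, 0.58 in LPS and 0.49 in LPS + GAS, and those of miR-29c 0.14, 0.41 and 0.36. Other precursors had the reverse, such as miR-434 (1.07, 0.26 and 0.40). MiR-132 was steady, with a pooled SD of 0.18 and rank 35. With 3 libraries in a group these SDs are themselves loosely known, and the difference in spread between groups was not tested.

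**Figure D3:**
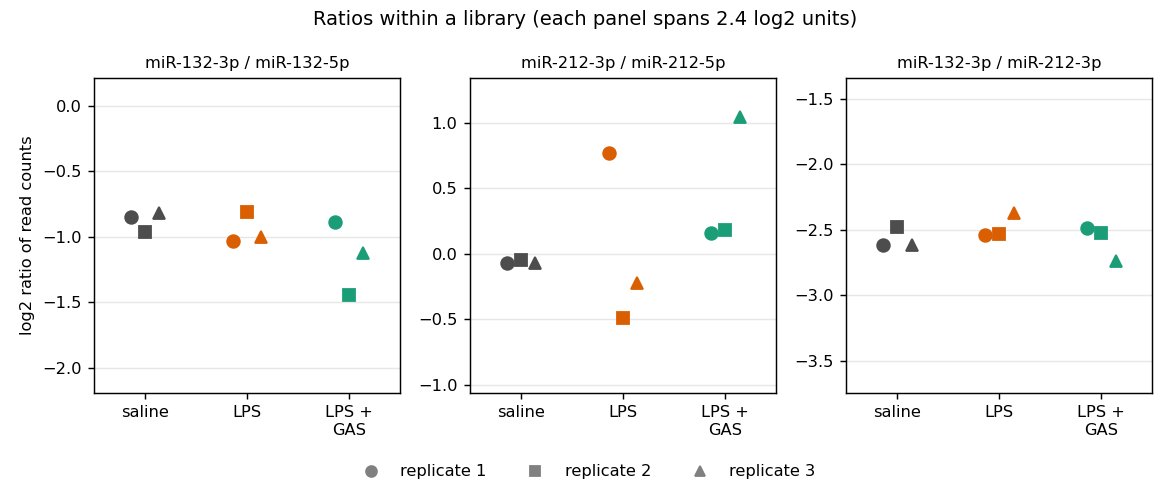
Log2 ratio of reads within each library for the arms of miR-132 (left), the arms of miR-212 (middle) and the 3p strands with the shared seed (right), by group, with 1 point per library and axes of equal length. The miR-212 arm ratio is −0.066 ± 0.012 in saline and reaches 1.04 in LPS + GAS replicate 3, while the other ratios stay within narrower bands.

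The first question of the design was whether LPS changed the cluster. In LPS vs saline none of the 4 members was called in edgeR, a call being an adjusted p up to 0.05 together with a log2 fold change of 1 or more in size. Of all 628 miRNAs 0% were called, 15 had an unadjusted p under 0.05, and DESeq2 called 1. The fitted log2 fold changes were 0.19 (SE 0.24, 95% interval −0.34 to 0.72) for mmu-miR-132-3p, 0.26 (SE 0.30, −0.42 to 0.93) for mmu-miR-132-5p, 0.093 (SE 0.19, −0.33 to 0.51) for mmu-miR-212-3p and 0.13 (SE 0.40, −0.77 to 1.03) for mmu-miR-212-5p. The adjusted p from edgeR was 0.992 for each. Saline and LPS libraries overlapped for all 4, where 3.82% of the miRNAs tested did not overlap. The intervals of the miR-132 arms and of mmu-miR-212-3p left out a 2-fold change, and that of mmu-miR-212-5p included a rise of that size.

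GAS after LPS did not change a member past the test either. In LPS + GAS vs LPS, 0 of 4 were called, as were 0% of the 628, with 23 of these at an unadjusted p under 0.05. Mmu-miR-212-5p had the lowest fitted value of the cluster, a log2 fold change of −0.59 (SE 0.40, 95% interval −1.49 to 0.32, adjusted p = 0.903). Without LPS + GAS replicate 3 it was −0.26, and without LPS replicate 1 it was −0.91. The values of the others were −0.21 (SE 0.24, −0.74 to 0.32) for mmu-miR-132-3p, 0.030 (SE 0.30, −0.64 to 0.70) for mmu-miR-132-5p and −0.12 (SE 0.19, −0.54 to 0.30) for mmu-miR-212-3p, with adjusted p-values of 0.948, 0.996 and 0.975. All 4 overlapped between the groups, where 8.6% of all miRNAs tested did not.

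Against saline, no member of the cluster in the LPS + GAS libraries passed the test. The log2 fold changes were −0.027 (SE 0.24, 95% interval −0.56 to 0.50) for mmu-miR-132-3p, 0.29 (SE 0.30, −0.39 to 0.96) for mmu-miR-132-5p, −0.026 (SE 0.19, −0.44 to 0.39) for mmu-miR-212-3p and −0.46 (SE 0.40, −1.36 to 0.45) for mmu-miR-212-5p, each with an adjusted p of 0.998. For mmu-miR-212-5p the value was −0.080 without LPS + GAS replicate 3. Called were 0 of 4 members and 0.159% of the miRNAs tested, which was mmu-miR-21a-3p alone, with 21 miRNAs at an unadjusted p under 0.05. Groups without overlap were 0 of 4 and 7.32%.

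Joining both injected groups gave the most precise estimate of a response to LPS with or without GAS. For the mean of LPS and LPS + GAS against saline the log2 fold changes were 0.080 (SE 0.21, 95% interval −0.38 to 0.54), 0.27 (SE 0.26, −0.32 to 0.86), 0.033 (SE 0.16, −0.33 to 0.40) and −0.16 (SE 0.35, −0.94 to 0.61) for mmu-miR-132-3p, mmu-miR-132-5p, mmu-miR-212-3p and mmu-miR-212-5p, with an adjusted p of 0.997 for each. All 4 intervals lay inside a 2-fold change in either direction. Among members 0 of 4 were called and 0 of 4 did not overlap, beside 0.159% and 1.27% of all miRNAs tested. The comparisons share libraries and are not independent of each other.

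**Figure D4:**
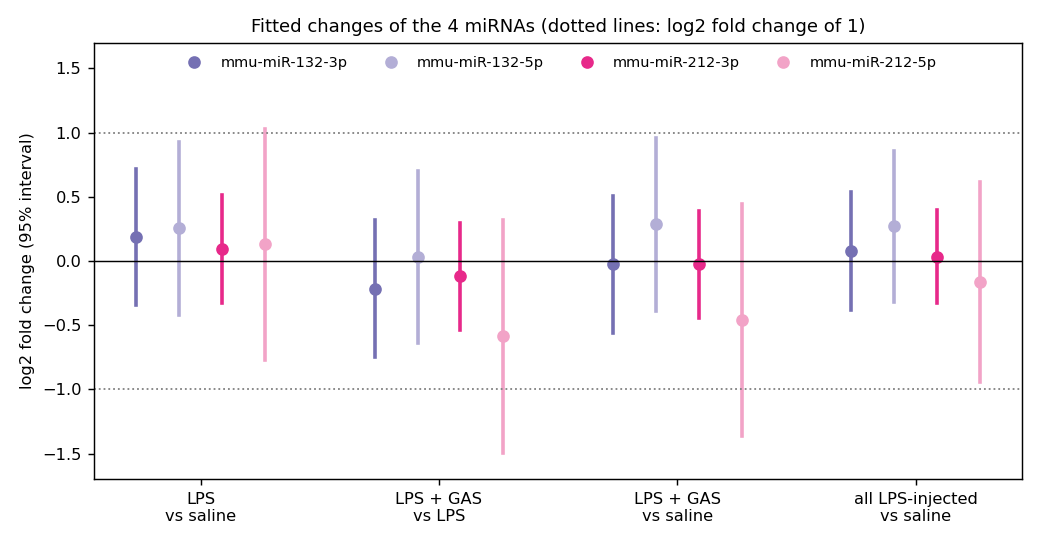
Fitted log2 fold changes of the 4 miRNAs in each comparison, with bars for the 95% interval from the model of all 9 libraries and dotted lines at a log2 fold change of 1 in either direction. Every interval includes 0, and those of mmu-miR-212-5p are the widest, from −1.49 to 0.32 for LPS + GAS vs LPS.

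Other miRNAs known to respond to neuronal activity, BDNF or the activity-regulated factor Mef2 were followed as a list of 15, all of which were tested. None was called in any of the comparisons. In LPS vs saline 7 had a log2 fold change above 0 and 8 below it, with a median of −0.023 beside −0.045 over all 628. In LPS + GAS vs LPS 6 were above and 9 below (median −0.088, all miRNAs 0.0030), in LPS + GAS vs saline 5 and 10 (median −0.14, all −0.028), and in all injected vs saline 4 and 11 (median −0.034, all −0.036). The list was thus split in direction in every comparison. Its widest values were those of mmu-miR-184-3p, a low-abundance miRNA (22.0 CPM on average), at 0.79 (SE 0.58) in LPS vs saline and −0.91 (SE 0.58) in LPS + GAS vs LPS. Mmu-miR-188-5p had the lowest value against saline in both injected groups, at −0.19 and −0.29.

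Neuronal miRNAs were abundant in these libraries, and no marker of the hippocampus itself was followed. The 6 neuronal markers were all tested, led by mmu-miR-124-3p at a mean of 66032 CPM, and their summed level was 109351 to 131826 CPM in saline, 127149 to 141052 in LPS and 116605 to 145244 in LPS + GAS. None was called, and 3 were above and 3 below 0 in every comparison. Markers of microglia and leukocytes (6), oligodendrocytes (4), vessels (4), red blood cells (5) and choroid plexus with ependyma (12 of 13 tested) also held no call, but several lists had their fitted values on 1 side of 0. Of the red blood cell markers 5 of 5 were above 0 in LPS + GAS vs LPS and in LPS + GAS vs saline and 5 of 5 below in LPS vs saline, and their summed level was 2065 to 4317 CPM in saline, 2189 to 3274 in LPS and 4606 to 6222 in LPS + GAS, where it did not overlap the others. These 5 are not separate markers, since mmu-miR-486a-5p and mmu-miR-486b-5p had the same mean (43.1 CPM) and the miR-144 arms share a hairpin. Most of the sum was mmu-miR-451a (3647 CPM on average). The choroid plexus list had 12 of 12 below 0 in LPS vs saline and 12 of 12 above in LPS + GAS vs LPS, the oligodendrocyte list 4 of 4 below and then 4 of 4 above, and the microglia and leukocyte list 3 of 6 above and then 6 of 6. The sum for choroid plexus and ependyma, tissue that borders the hippocampus, varied most, from 9809 to 29655 CPM in saline, 9606 to 22361 in LPS and 12607 to 56708 in LPS + GAS. It was mostly mmu-miR-204-5p (19222 CPM on average), with mmu-miR-1298-5p next (832 CPM). The part of these lists in the levels of the cluster was not tested.

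Outside the cluster, the miRNA with the most similar course over the 9 libraries was the same for 3 of the 4 members. Among 234 other miRNAs of at least 50 CPM, mmu-miR-135b-5p had the highest Pearson r with mmu-miR-132-3p (0.823), mmu-miR-132-5p (0.869) and mmu-miR-212-3p (0.865). Its levels were 386, 653 and 240 CPM in saline, 269, 375 and 592 in LPS, and 318, 855 and 220.3 in LPS + GAS, with the peaks in the replicates where mmu-miR-132-5p was also highest. Next were mmu-miR-30a-3p (0.789) and mmu-miR-151-3p (0.757) for mmu-miR-132-3p, mmu-miR-34a-5p (0.828) and mmu-miR-490-5p (0.824) for mmu-miR-132-5p, and mmu-miR-30a-3p (0.791) and mmu-miR-490-5p (0.785) for mmu-miR-212-3p. The most similar to mmu-miR-212-5p were mmu-miR-154-5p (0.754), mmu-miR-151-3p (0.752) and mmu-miR-129-5p (0.743). All of these were lower than the r of 0.974 between the 3p strands of the cluster, but not lower than every r inside it. The r of mmu-miR-135b-5p with mmu-miR-132-5p (0.869) was above that of the miR-132 arms (0.848). Among 237 others, mmu-miR-212-5p ranked 6 for mmu-miR-212-3p, 5 for mmu-miR-132-3p and 36 for mmu-miR-132-5p. These are descriptions over 9 libraries that share depth and scaling.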

How the data were processed

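Small RNA of 9 hippocampal samples was sequenced on BGISEQ-500. The authors deposited 1 table of read counts per mature miRNA and library, not normalized, with exp values (whole numbers never above the read counts, how made is not stated) and their own group averages and DESeq2 comparisons, which were not used. The genome build in the submitters' processing notes is GRCm38.p6, while aligner, counter and miRBase release were not given in the sources used here. Columns were assigned to samples by name, with 0 left over.

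Counts were tested with edgeR 4.0.16 in R 4.3.3. The filter of 10 or more reads in 3 or more libraries kept 628 of 1448 miRNAs, TMM factors were 0.914 to 1.19, and all 9 libraries were fitted in 1 quasi-likelihood model (glmQLFit, glmQLFTest), with Benjamini-Hochberg adjustment over the 628. A call needed an adjusted p up to 0.05 and a log2 fold change of 1 or more in size, the thresholds of the study. Ratios of reads were compared by exact two-sided permutation tests, adjusted over 12. Correlations used log2(CPM + 1) and exact permutation tests. Named were the members, the 3 miRNAs most correlated with each, and the extremes of a 15-member activity list, beside marker lists of 6 cell types. Members and lists were chosen with earlier results of these data known.

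Alternatives were DESeq2 1.42.0 size factors and Wald test, limma 3.58.1 voom, other count filters, the exp values, the replicate number as a block, only the groups compared and each library left out. CPM without TMM factors was added after the data had been seen. The scripts were tested on simulated counts. Same-numbered libraries deviated together in LPS + GAS vs saline (r = 0.296, 0.329 and 0.370 over miRNAs). In LPS vs saline 2 of 3 pairs did so (0.317, 0.209 and −0.284), in LPS + GAS vs LPS none did above 0.1 (−0.274 to 0.0466), and the labels name no shared litter or day.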

Additional observations from a re-analysis of the deposited data

How the results depend on the processing

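Of 272 refits of the 4 members, 238 kept their direction, 34 turned it, and none made a call, with adjusted p-values of 0.774 to 1. Some of these left out a library that was not in the comparison, which moves a value only through the scaling and the shared fit. In LPS + GAS vs saline mmu-miR-132-3p and mmu-miR-212-3p turned above 0 with DESeq2's size factors (0.035 and 0.035), without the count filter (0.032 and 0.031), with at least 50 reads in 3 libraries (0.016 and 0.016), in DESeq2's Wald test (0.035 and 0.035) and with the exp values (0.014 and 0.016). In LPS + GAS vs LPS mmu-miR-132-5p was −0.023 by voom and −0.036 with the replicate block, which turned no other member and added no call.

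With each library left out in turn, values for LPS vs saline ran from 0.019 to 0.35 (mmu-miR-132-3p), 0.053 to 0.47 (mmu-miR-132-5p), −0.011 to 0.21 (mmu-miR-212-3p) and −0.054 to 0.46 (mmu-miR-212-5p), and for LPS + GAS vs LPS from −0.40 to −0.015 (mmu-miR-132-3p), −0.36 to 0.26 (mmu-miR-132-5p), −0.28 to 0.019 (mmu-miR-212-3p) and −0.91 to −0.26 (mmu-miR-212-5p). For LPS + GAS vs saline they ran from −0.22 to 0.22 (mmu-miR-132-3p), −0.11 to 0.56 (mmu-miR-132-5p), −0.18 to 0.16 (mmu-miR-212-3p) and −0.75 to −0.080 (mmu-miR-212-5p), and for all injected vs saline from −0.014 to 0.25 (mmu-miR-132-3p), 0.075 to 0.49 (mmu-miR-132-5p), −0.046 to 0.15 (mmu-miR-212-3p) and −0.31 to 0.051 (mmu-miR-212-5p). The ends of these ranges came without saline replicate 2, LPS replicate 1 or 3, or LPS + GAS replicate 2 or 3. The log2 ratio of mmu-miR-132-3p to mmu-miR-212-3p in LPS + GAS vs saline ran from −0.058 to 0.068, and that of the miR-212 arms in LPS vs saline from −0.29 to 0.34.

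Calls over all miRNAs, none a member, were 2 in LPS vs saline without the filter and 1 in DESeq2's Wald test, and in all injected vs saline 2 without the filter and 0 with only the groups compared. With a library left out they ran from 0 to 1 (LPS vs saline), 0 to 1 (LPS + GAS vs LPS) and 0 to 2 (all injected vs saline). The 2 of LPS vs saline were mmu-miR-21a-3p and mmu-miR-532-3p. The causes of these changes were not tested. With 3 libraries a group, the intervals of the members, not their read numbers, limit what could be seen.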

Other observations

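The exp values, used only as an alternative to the read counts, were 99.2% to 100% of the reads of mmu-miR-132-3p, 98.2% to 99.5% for mmu-miR-132-5p, 96.7% to 97.8% for mmu-miR-212-3p and 95.5% to 98.9% for mmu-miR-212-5p over the 9 libraries. Over all miRNAs the exp values were much lower than the reads, with totals of 4210219 to 4583427 per library beside 10119758 to 11457656 reads. How the authors made them is not stated in the sources used here.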
